A study of Mus musculus with 58 samples.

Results

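The heat shock and DnaJ chaperones are the genes whose listed symbol starts with Hspa, Hspb, Hspd, Hspe or Hsph and a number, with Hsp90, or with Dnaja, Dnajb or Dnajc and a number. Of 72 genes with such a name among the 31246 listed, 64 reached a mean normalized count of 10 in both regions and are described here. RNA-sequencing covered the primary visual cortex (PVC) as well as the entorhinal cortex (EC) of male C57Bl/6 *APOE* targeted replacement mice aged 14 to 15 months, and the 58 libraries split in each region into 10 from *APOE3/3* and 19 from *APOE3/4* animals, whose numbers were the same in both. In every animal human *APOE* replaces the mouse gene and is driven by the mouse promoter, so both genotypes lack mouse *Apoe*, *APOE3/4* mice carry 1 copy of each human allele, and no animal with mouse *Apoe* was included. The mice of the whole study, which also included animals not sequenced, came from 2 colonies. Which colony each sequenced animal came from is not given in the sources used here. The EC is a region affected early in Alzheimer's disease and the PVC is relatively spared, so the question here is which chaperone genes had a different level in these regions. The values analysed were the authors' mean normalized counts, 1 per gene and region, averaged over all 29 libraries of both genotypes. No value of a single mouse and no comparison of the genotypes was used here, and each value below is therefore given without a spread or a test.

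Chaperones bind unfolded or partly folded proteins and keep them from aggregating. HSP70 proteins do this in cycles of ATP hydrolysis, which J-domain proteins (the DNAJA, DNAJB and DNAJC classes) start and which nucleotide exchange factors such as the HSP110 proteins end. HSP90 proteins act later on clients such as kinases and hormone receptors, small heat shock proteins hold clients without ATP, and HSP60 with its lid HSP10 folds proteins inside mitochondria. In neurons, which do not divide, this system also serves the synapse, where auxilin and the cysteine string protein are J-domain proteins of clathrin-coated and synaptic vesicles. Some of these genes are expressed at all times, and others are induced by heat shock factor or by stress of the endoplasmic reticulum (ER).

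Levels between genes were compared as the mean normalized count per base of annotated exon, scaled to 1000000 within each region over the 25368 genes with an annotated length. On this scale the 64 genes together had a level of 9308 (EC) and 8844 (PVC), which is 0.931% and 0.884% of the total. A few genes made up most of it. *Hsp90ab1*, *Hspa8* and *Hsp90aa1* held 51.2% of the summed level (EC) and 50.0% (PVC), and the 10 highest members held 69.1% and 67.8%. The median member had a level of 52.9 (EC) and 52.3 (PVC), against 23.2 and 22.8 for all genes tested, and 43 and 44 members were above that median. From the highest member to the lowest, levels spanned 1045-fold (EC) and 902-fold (PVC).

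**Figure D1:**
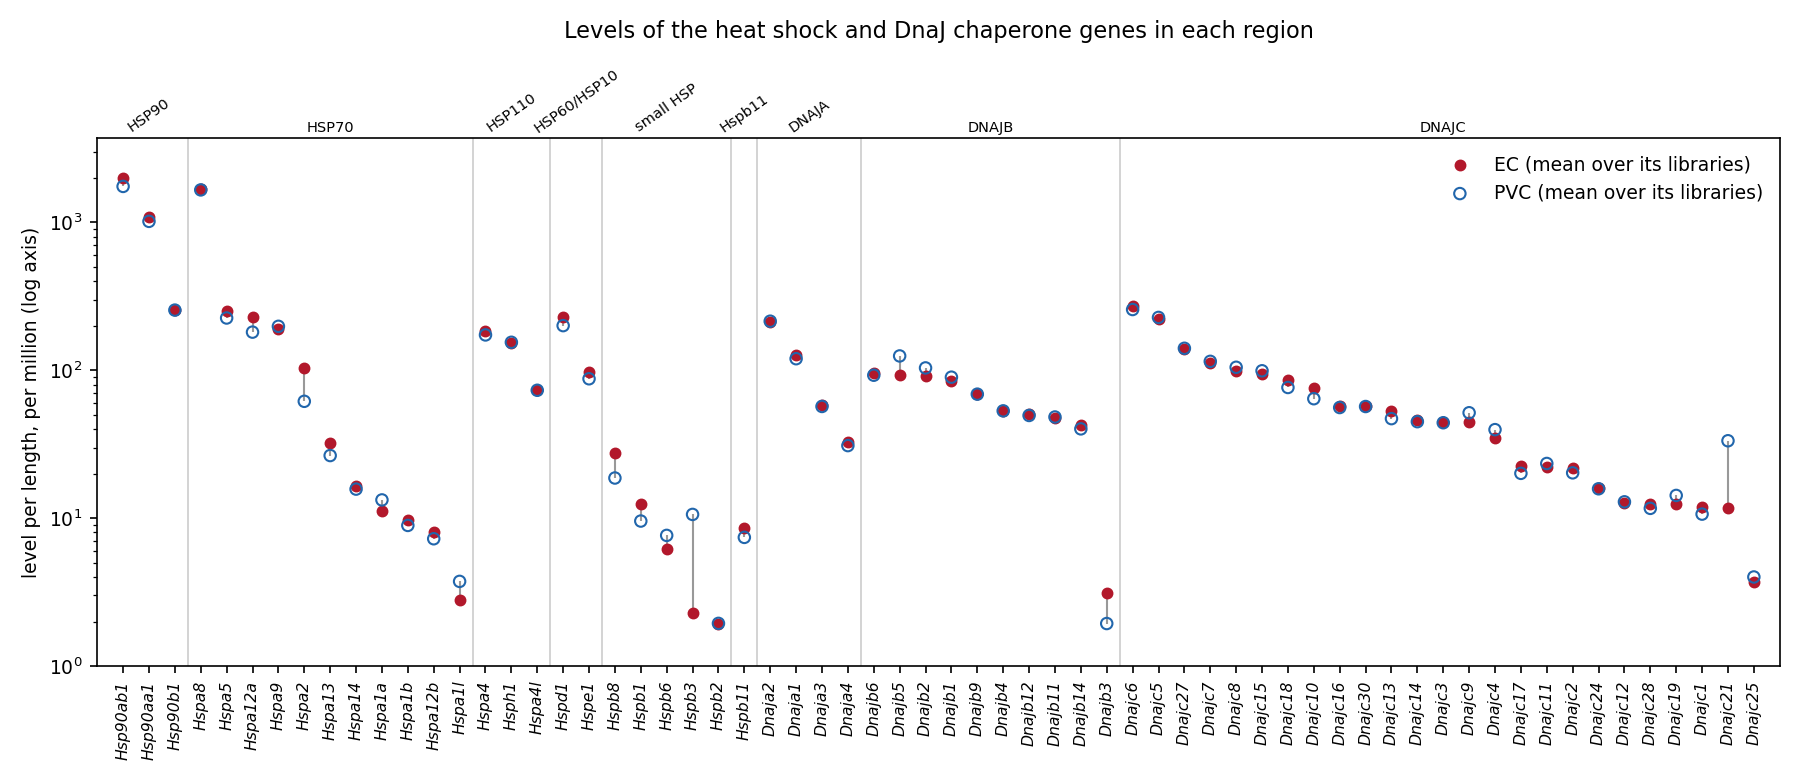
Level per length of each of the 64 chaperone genes, scaled to 1000000 on a log axis, in the EC (filled points) and the PVC (open points), grouped by family and ordered by the EC level. Each point is a mean over 29 libraries with no error bar, as no values of single mice were used, and the points of most genes lie close together while those of the called genes *Hspa2*, *Dnajb3*, *Hspb3* and *Dnajc21* are apart.

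The tables of the EC and the PVC had been normalized separately, so a ratio between them needed a common centre. The median log2 ratio of EC over PVC over the 15642 genes that reached a mean normalized count of 10 in both regions was 0.89, and this was subtracted from every ratio. Below, a ratio is this centred log2 ratio of EC over PVC. A gene past 1.5-fold in either direction was called, and 12.2% of all genes tested were (6.78% higher in the EC and 5.38% lower). Among the chaperone genes 4 of 64 were called, or 6.25%. These were *Hspa2* and *Dnajb3*, which were higher in the EC, and *Hspb3* and *Dnajc21*, which were lower. The other 60 had ratios between −0.47 and 0.52. The median ratio of the chaperone genes was −0.01, and 42 of them (65.6%) were within 1.1-fold of the centre, against 46.7% of all genes. These shares were not matched for level, and the median chaperone gene had a higher level than the median gene tested. Of the 5812 genes that reached 1000 normalized counts in both regions 5.88% were called, and of the 36 chaperone genes among them 1 was. The order of the levels was almost the same in both regions, with a Spearman rho of 0.985 across the 64 genes, which are not independent and were measured in the same mice.

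**Figure D2:**
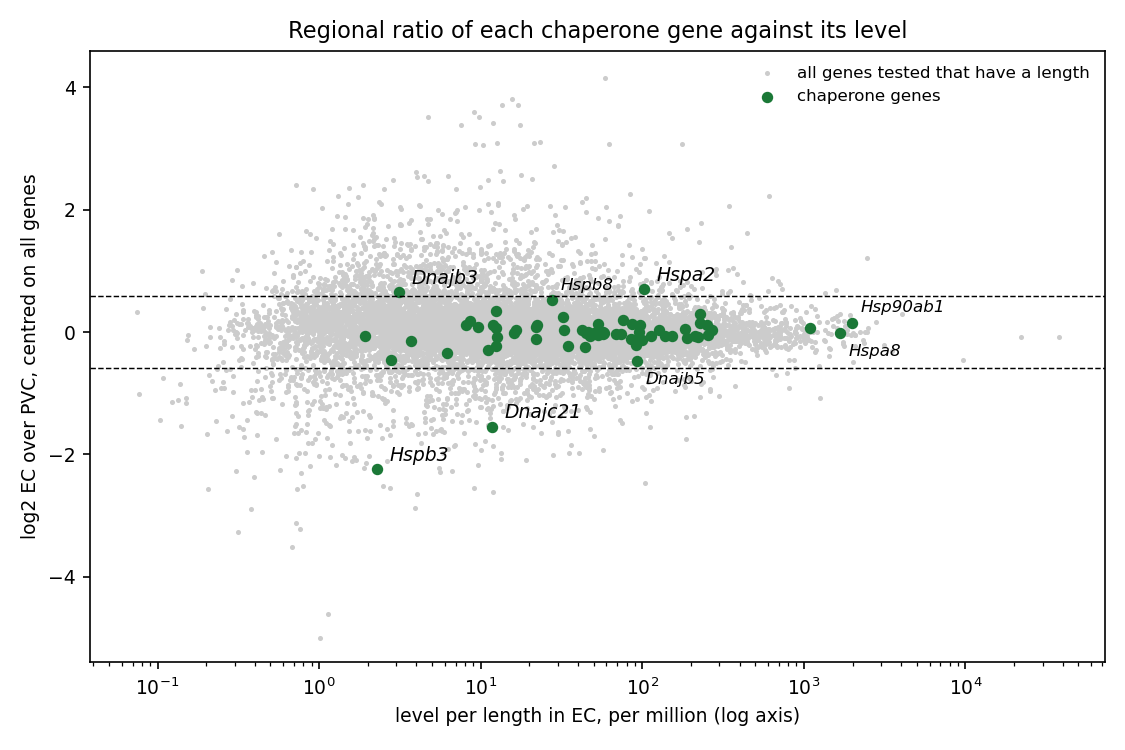
Centred log2 ratio of EC over PVC against the level per length in the EC (log axis), for all genes tested that have a length (grey) and the 64 chaperone genes (green). Dashed lines mark 1.5-fold, and *Hspa2*, *Dnajb3*, *Dnajc21* and *Hspb3* are the chaperone genes outside them.

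Counting error alone was small beside the ratios of *Hspa2*, *Hspb3* and *Dnajc21*, and not beside all others. If 29 times a mean normalized count is taken as the reads behind it, the standard error of a ratio from counting was at most 0.10 and in the median 0.0093 over the chaperone genes. The 95% counting interval of the ratio included 0 for 8 of the 64 genes, *Dnaja3*, *Dnajb6*, *Dnajb12*, *Dnajc14*, *Dnajc16*, *Dnajc24*, *Dnajc30* and *Hspb2*. Counting error does not include the spread between mice, so a small ratio cannot be read as a difference between regions.

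The tissue was checked against marker genes of its cell types. Neuronal markers were abundant in both regions, with summed levels of 5322 (EC) and 5769 (PVC). The 7 oligodendrocyte markers were all called lower in the EC, with ratios from −1.63 for *Mobp* to −0.99 for *Cnp* and summed levels of 617 against 1523. The 6 meningeal markers were all called higher in the EC, from 0.65 for *Lum* to 3.07 for *Dcn*, with summed levels of 291 against 76.8. Of 4 hippocampal markers tested, *Fibcd1* (2.13) and *C1ql2* (1.79) were called higher in the EC, while *Lct* (0.09) and *Prox1* (−0.25) were not called. Astrocyte markers ran from −0.35 to 0.62, with *Gfap* called, and microglial and endothelial markers stayed between −0.15 and 0.24. Of the neuronal markers *Nefl* (−0.81) was called, and the others ran from −0.55 for *Snap25* to 0.35 for *Stmn2*. Of 3 choroid plexus markers tested *Ttr* (−2.18) was called, with *Kl* at 0.02 and *Clic6* at 0.0021. Of 2 ependymal markers tested *Rsph1* (0.78) was called, and *Foxj1* had −0.44. In whole tissue, fewer cells of a type and less RNA per cell cannot be told apart, and the part of these cell types in the chaperone ratios was not tested.

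The HSP90 family had the highest summed level, at 3339 (EC) and 3018 (PVC). *Hsp90ab1*, the constitutive cytosolic HSP90, had a mean normalized count of 79629 (EC) and 38533 (PVC). Per length it was the highest chaperone in both regions, at 1998 and 1748 per 1000000, and the 20th highest of all genes in the EC and the 29th in the PVC. Its ratio was 0.15. *Hsp90aa1*, the heat-inducible cytosolic form, had levels of 1086 and 1015 and a ratio of 0.06. The constitutive form was thus 1.84 times as abundant per length as the inducible form in the EC and 1.72 times in the PVC. *Hsp90b1*, the HSP90 of the ER, was lower, at 254 and 255, with a ratio of −0.04.

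Among the 11 HSP70 genes, *Hspa8* stood far above the rest. It encodes the constitutive cytosolic HSC70, which also strips clathrin from vesicles, and had a mean normalized count of 92900 (EC) and 50574 (PVC). Its levels of 1682 and 1656 were 66.4% and 69.1% of the summed HSP70 level, and its ratio was −0.02. *Hspa5*, the ER chaperone BiP, followed with levels of 250 and 225 and a ratio of 0.11. The mitochondrial *Hspa9* had levels of 190 and 198 and a ratio of −0.10. *Hspa12a*, a distant and atypical HSP70, was comparable to these, at 228 (EC) and 181 (PVC), with a ratio of 0.30. *Hspa13*, an HSP70 of the ER, had levels of 32.4 and 26.5 and a ratio of 0.25, *Hspa14*, which acts at the ribosome, had 16.6 and 15.7, and *Hspa12b* had 8.10 and 7.25.

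The inducible HSP70 genes had low counts in both regions. *Hspa1a* had a mean normalized count of 434 (EC) and 286 (PVC) and *Hspa1b* had 360 and 184, with ratios of −0.29 and 0.08. These genes lie next to each other and are nearly identical. How reads that fit both were counted is not given in the sources used here, so their separate values are uncertain. If such reads were left out, the sum of both genes is too low as well. *Hspa1a* also shares 18.9% of its exon bases with *Gm20481* on the opposite strand. Added together they had a ratio of −0.13. Per length, *Hspa8* was 80.7 times as abundant as their sum in the EC and 74.6 times in the PVC. These multiples are too high if reads that fit both genes were left out. Their neighbour *Hspa1l*, known mainly from testis, was lower again, at 91.7 and 67.8 normalized counts, with a ratio of −0.46. Of its exon bases, 72.0% are shared with *Gm10501* on the opposite strand, which the unstranded library kit cannot separate, and *Gm10501* had a ratio of −0.57.

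*Hspa2* was the only HSP70 gene called. This gene, best known for its role in meiosis of male germ cells and also expressed in brain, lies on chromosome 12 of NCBIM37 (chr12:77505163-77507921, plus strand). Its mean normalized count was 3453 (EC) and 1142 (PVC), and its level was 103 against 61.6. After centring it was 1.63-fold higher in the EC (log2 0.70, counting error 0.01), the largest ratio in that direction among the chaperone genes. *Hspa8* was 16.3 times as abundant per length as *Hspa2* in the EC and 26.9 times in the PVC.

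The HSP110 genes *Hspa4*, *Hspa4l* and *Hsph1* release nucleotide from HSP70. Their levels were 185, 73.8 and 152 in the EC and 173, 73.2 and 154 in the PVC, with ratios of 0.05, −0.03 and −0.06. The summed HSP70 level was 6.18 times the summed HSP110 level in the EC and 5.98 times in the PVC. It was 0.960 and 0.893 times the summed level of the 39 J-domain genes.

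**Figure D3:**
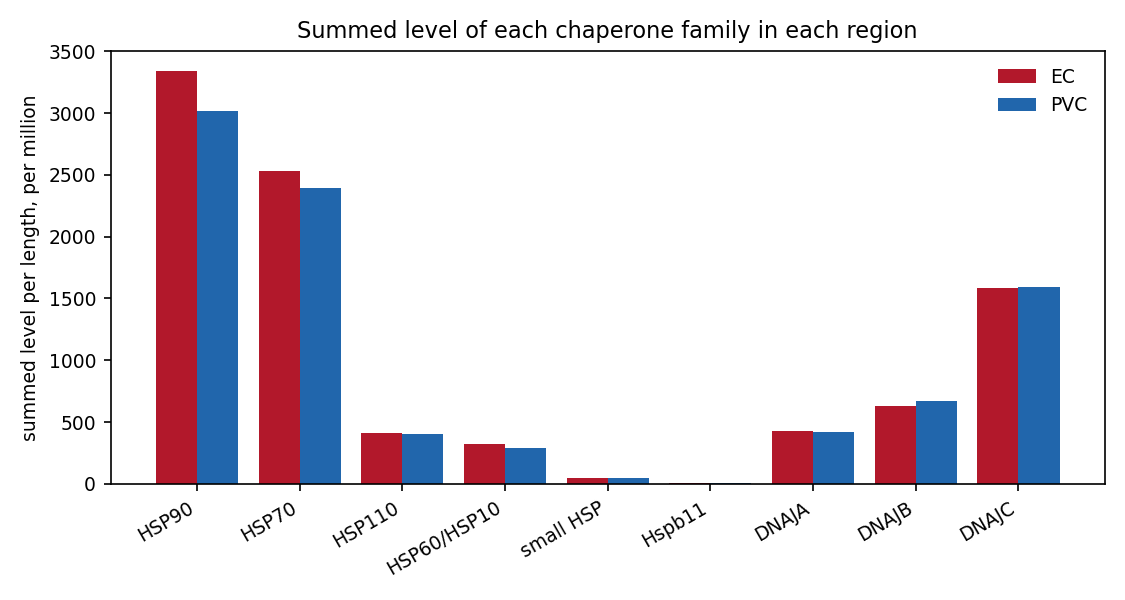
Summed level per length of each chaperone family, scaled to 1000000, in the EC (red) and the PVC (blue), with bars starting at 0. HSP90 and HSP70 are the highest families in both regions, DNAJC follows at 1583 and 1591, and the 5 small heat shock protein genes sum to 50.4 and 48.4.

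The mitochondrial chaperonin genes *Hspd1* (HSP60) and *Hspe1* (HSP10) lie head to head on chromosome 1 and shared a direction, with ratios of 0.15 and 0.11. They share 112 exon bases on opposite strands, which the unstranded library kit cannot separate. This is 4.24% of the exon bases of *Hspd1* and 7.60% of those of *Hspe1*. *Hspd1* had a mean normalized count of 7998 (EC) and 3888 (PVC) and *Hspe1* had 1900 and 948. Per length, *Hspe1* was 0.426 times as abundant as *Hspd1* in the EC and 0.437 times in the PVC. These multiples depend on the length used. The exons of *Hspe1* and *Hspd1* cover 1474 and 2642 bases, while their longest transcripts have 964 and 2423. The promoter that *Hspd1* and *Hspe1* share is shown because it holds a heat shock element that both genes face. The element was searched as 3 alternating pentamer cores, GAANNTTCNNGAA or its reverse complement TTCNNGAANNTTC, in the 250 bases before each start site of the RefSeq promoter table (build GRCm38.p6). Matches that overlapped were joined. Each sequence reads in the direction of its gene, with the element in capitals.
Hspd1: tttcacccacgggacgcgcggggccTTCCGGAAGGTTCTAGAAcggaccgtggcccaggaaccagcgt
Hspe1: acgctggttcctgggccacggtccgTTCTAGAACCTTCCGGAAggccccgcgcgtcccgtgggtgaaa
Dnajb6: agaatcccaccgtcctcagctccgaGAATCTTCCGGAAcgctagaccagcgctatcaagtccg
The 2 chaperonin lines are the same stretch, chr1:55088034-55088101, read on opposite strands. The capitals run from 144 to 127 bases before the *Hspd1* start and from 89 to 72 before the *Hspe1* start. The stretch of *Dnajb6*, chr5:29735827-29735889, has its element 46 to 34 bases before 1 start site and 127 to 115 before another. These 3 were the genes with the element among 52 members with a promoter in the table, against 139 of the 27025 genes in the table (0.514%). The 12 members without a promoter in the table were not searched. They include the 3 most abundant members (*Hsp90ab1*, *Hspa8* and *Hsp90aa1*). The others are *Hspa9*, *Dnajc5*, *Hspa13*, *Hspb2*, *Dnajc2*, *Dnajc11*, *Dnajc12*, *Dnajc18* and *Dnajc30*. The windows of *Hspa1a*, *Hspa1b*, *Hspb1*, *Dnajb1* and *Hsph1* did not hold these exact letters, which says nothing of binding by heat shock factor there. The 13 genes of the heat-inducible list had a median ratio of 0.04, from −0.29 for *Hspa1a* to 0.52 for *Hspb8*. Of them 0 were called, against 12.2% of all genes tested, and at that share 0 in so short a list does not set it apart. The list holds *Hspa1a*, *Hspa1b*, *Hsp90aa1*, *Hsph1*, *Hspa4l*, *Hspd1*, *Hspe1*, *Hspb1*, *Hspb8*, *Dnaja1*, *Dnajb1* and *Dnajb4*, and also *Hspa8*, which is described above as the constitutive form.

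The ER chaperones had ratios from −0.06 for *Dnajb11* to 0.25 for *Hspa13*. The 10 genes of the ER list include the ER members of the HSP70, HSP90 and J-domain families. They had a summed level of 879 (EC) and 833 (PVC) and a median ratio of 0.01. Of these 10, 0 were called, against 12.2% of all genes tested, which so short a list cannot be told apart from. Of the J-domain proteins of the ER, *Dnajc10*, which reduces disulfide bonds, had the largest ratio, at 0.21, with levels of 76.0 and 64.2. *Dnajb9*, *Dnajb11* and *Dnajc3*, which act with BiP, had ratios of −0.03, −0.06 and −0.02. *Dnajc1* had 0.12, and the ER membrane proteins *Dnajb12* and *Dnajb14* had −0.01 and 0.04. The promoters of *Hspa5*, *Hsp90b1* and *Dnajc3* are shown because they hold the ER stress element, searched as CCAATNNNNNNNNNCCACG or its reverse complement in the same windows. It was found in these 3 of the 52 members and in 35 of the 27025 genes (0.130%), and is in capitals.
Hspa5: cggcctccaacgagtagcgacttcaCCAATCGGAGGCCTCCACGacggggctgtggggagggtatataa
Hsp90b1, nearer: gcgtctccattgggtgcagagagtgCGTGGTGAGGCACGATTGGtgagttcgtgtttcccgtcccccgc
Hsp90b1, farther: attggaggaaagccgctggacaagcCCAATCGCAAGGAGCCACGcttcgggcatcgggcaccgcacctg
Dnajc3: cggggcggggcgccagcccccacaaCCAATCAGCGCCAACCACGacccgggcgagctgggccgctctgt
They lie at chr2:34772000-34772068 for *Hspa5*, chr10:86705508-86705576 and chr10:86705613-86705681 for *Hsp90b1*, and chr14:118937802-118937870 for *Dnajc3*. The element starts 65 bases before the start site of *Hspa5*, 107 and 212 before that of *Hsp90b1*, and 105 before that of *Dnajc3*. The genes with this element differed in level, with 250 for *Hspa5*, 254 for *Hsp90b1* and 44.8 for *Dnajc3* in the EC.

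The 5 small heat shock protein genes were low, and 1 of them was called, against 12.2% of all genes tested. *Hspb3*, a small heat shock protein known from muscle, lies on chromosome 13 of NCBIM37 (chr13:114453104-114453884, minus strand) and had a mean normalized count of 23.8 (EC) and 60.8 (PVC). It was 4.74-fold lower in the EC (ratio −2.24, counting error 0.06), the largest difference of any chaperone gene, and the counts were lower in the EC even though the EC table has the higher counts in general. *Hspb8*, which works with BAG3 in clearing misfolded proteins, had 714 and 268 normalized counts. Its ratio of 0.52 was the largest of the genes not called. *Hspb1* (HSP27) had a ratio of 0.35 at 171 and 72.4 normalized counts, and *Hspb6* (HSP20) had −0.34 at 189 and 129. *Hspb2* was just above the minimum, at 21.3 and 11.997, with a ratio of −0.06. *Hspb11*, which is a subunit of intraflagellar transport despite its symbol, had 238 and 113 normalized counts and a ratio of 0.18.

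The 39 J-domain genes had a median ratio of −0.02, with 15 above the centre and 24 below. Of them 2 were called, against 12.2% of all genes tested. The 4 DNAJA genes had the narrowest range of ratios of the J-domain classes. DNAJA is also the smallest class, against 10 DNAJB and 25 DNAJC genes, and a range tends to widen with the number of genes. *Dnaja2* and *Dnaja1*, general cytosolic partners of HSP70, had levels of 211 and 126 in the EC and 214 and 120 in the PVC. *Dnaja3*, which is mitochondrial, had 57.9 and 56.9, *Dnaja4* had 32.7 and 30.9, and all 4 ratios lay between −0.06 and 0.04. Of the exon bases of *Dnaja4*, 44.1% are shared with *Wdr61* on the opposite strand. Opposite-strand genes also share 37.59% of the exon bases of *Dnajc30* (*Wbscr22*), 36.5% of *Dnajc14* (*Ormdl2*) and 10.3% of *Hsp90b1* (*1810014B01Rik*).

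Of the 10 DNAJB genes, *Dnajb6*, which suppresses aggregation of polyglutamine proteins, had the highest level in the EC, at 95.4 against 92.5 in the PVC. *Dnajb5* was 92.8 (EC) and 125 (PVC), which made it the highest DNAJB gene of the PVC per base of exon. Its ratio of −0.47 was the lowest of the genes not called. The order of *Dnajb5* and *Dnajb6* depends on the length used. Their exons cover 5936 and 5721 bases, while their longest transcripts have 5052 and 2918. *Dnajb2*, a J-domain protein enriched in neurons, had levels of 91.7 and 104 and a ratio of −0.22. *Dnajb1*, the heat-inducible partner of HSP70, had 85.2 and 89.7 and a ratio of −0.11, and *Dnajb4* had 52.9 and 53.1 and a ratio of −0.05. *Dnajb3*, known mainly from testis, was called higher in the EC on few reads. Its mean normalized counts were 42.2 and 14.5, close to the minimum of 10, and its ratio of 0.65 has a 95% counting interval of 0.49 to 0.81, which includes the 1.5-fold limit of 0.58. It lies at chr1:90101307-90102323 of NCBIM37 on the minus strand.

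The 25 DNAJC genes share only the J domain and serve many compartments. The highest per base of exon were the membrane traffic genes *Dnajc6* (auxilin), at 270 (EC) and 257 (PVC), and *Dnajc5* (cysteine string protein), at 221 and 227. Their ratios were 0.03 and −0.08. *Dnajc13*, an endosomal protein, had 52.8 and 47.1 and a ratio of 0.13. Next were *Dnajc27*, a Rab-like GTPase with a J domain (138 and 141), *Dnajc7*, which binds both HSP70 and HSP90 (113 and 115), *Dnajc8*, associated with splicing (98.9 and 105), and *Dnajc15* of the mitochondrial inner membrane (94.2 and 99.1). *Dnajc18* had 86.5 and 76.4 and a ratio of 0.14. *Dnajc7* shares 3.17% of its exon bases with *Cnp*, an oligodendrocyte gene on the opposite strand with a ratio of −0.99, and its own ratio was −0.07. Over the 9 genes of the mitochondrial list the median ratio was −0.02, from −0.23 for *Dnajc19*, a component of the import motor, to 0.15 for *Hspd1*. Of these 9 genes 0 were called, against 12.2% of all genes tested, which so short a list cannot be told apart from.

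*Dnajc21*, which acts in the maturation of the large ribosomal subunit, was the single DNAJC gene called. It lies at chr15:10376511-10400271 of NCBIM37 on the minus strand and had a mean normalized count of 746 (EC) and 1171 (PVC). It was 2.91-fold lower in the EC (ratio −1.54, counting error 0.01), and its level was 11.7 against 33.3. The next lowest DNAJC ratio was −0.25 for *Dnajc9*, a histone chaperone, and the highest was 0.21 for *Dnajc10*, so *Dnajc21* lay far outside the range of the other 24. No exon base of *Hspa2*, *Hspb3*, *Dnajb3* or *Dnajc21* is shared with another annotated gene.

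The partners of these chaperones were taken from 5 lists with 68 listed genes, of which 64 were tested. Of these, 1 was called higher in the EC and 2 lower, against 6.78% and 5.38% of all genes tested. The median ratio of the tested partners was 0.0031. *Pgrmc1*, a haem-binding membrane protein on the co-chaperone list, had a ratio of 0.70 at 17985 and 5959 normalized counts. The lower genes were *Cryab* (αB-crystallin, a small heat shock protein abundant in oligodendrocytes), at −0.70, and *Hsf4*, a heat shock factor, at −0.65. *Hsf1*, the main heat shock factor, had −0.05 and *Hsf2* had 0.16. Of the 32 co-chaperones, 14 were above the centre and 18 below, with *Stip1*, which links HSP70 to HSP90, at 0.02, *Stub1*, a ubiquitin ligase of HSP70 clients, at 0.02, *Bag3* at 0.18 and *Fkbp5* at 0.40. By level in the EC, among co-chaperones with an annotated length, *Ahsa1* (257), *Stip1* (253), *Nudc* (229) and *Fkbp8* (216) followed *Pgrmc1* (729), with ratios of −0.07, 0.02, −0.17 and −0.04. *Bat3* (*Bag6*) had no matched length and is not in this order, at 10103 and 5667 normalized counts and a ratio of −0.06. The 8 tested genes of the cytosolic chaperonin CCT ran from −0.0022 to 0.17 with a median of 0.11, the highest in level being *Cct8*, *Cct6a*, *Cct7*, *Cct2* and *Cct5* (251 to 168 in the EC), and the 6 prefoldin genes from −0.22 to 0.08. The highest prefoldin gene was *Pfdn5*, at 204, and then *Pfdn1*, *Pfdn2*, *H2-Ke2* and *Vbp1*. The ER lectins *Calr* and *Canx* had levels of 407 and 376 and ratios of 0.09 and 0.14, *Trap1*, the mitochondrial HSP90, had 0.02, *Gak*, a kinase related to auxilin, 0.0023, and *Hyou1*, the HSP110 of the ER, 0.22. *Hsbp1*, which binds heat shock factor, had a level of 651 and a ratio of 0.39, and *Hsf5* was near the minimum.

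**Figure D4:**
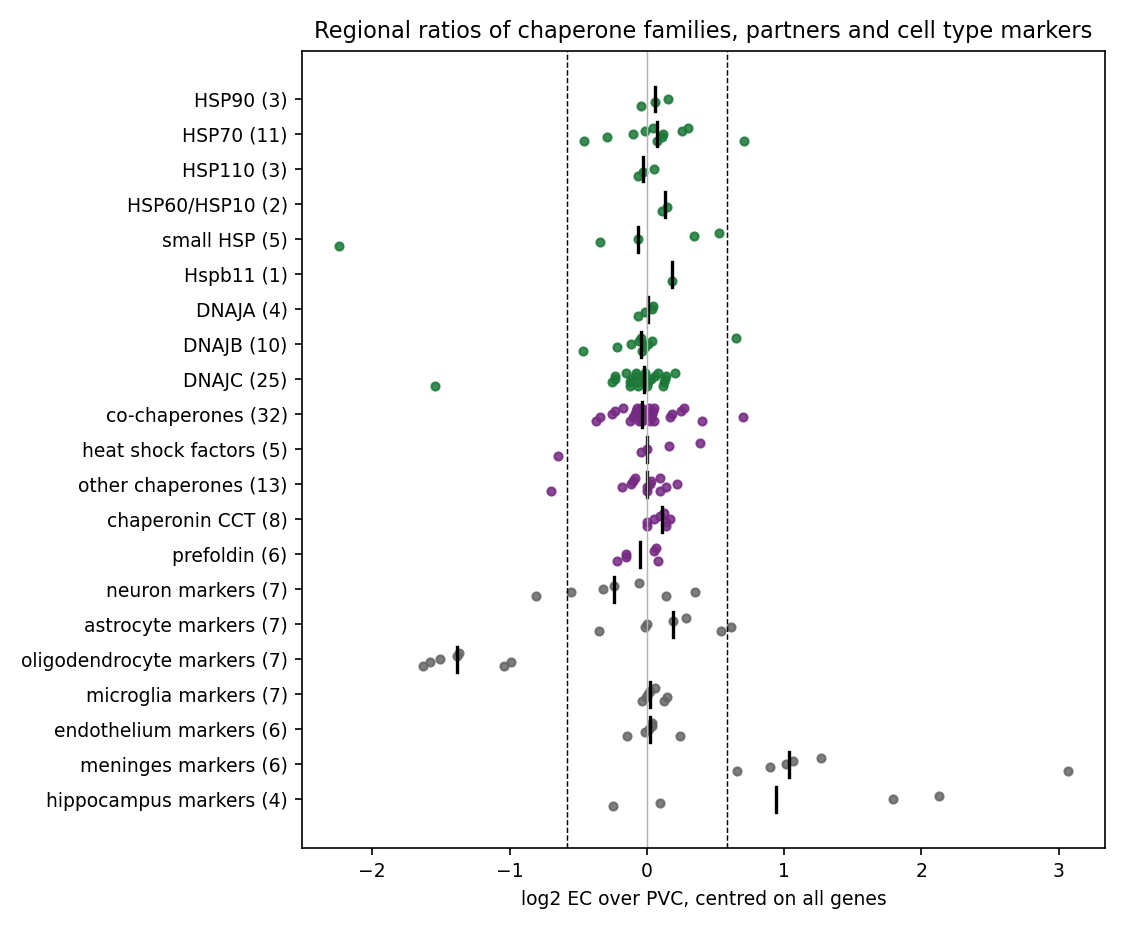
Centred log2 ratio of EC over PVC of each tested gene (points) in the chaperone families (green), the partner lists (purple) and the cell type marker lists (grey), with the number of genes in brackets. Black bars are medians and dashed lines mark 1.5-fold, which 12.2% of all genes tested were past. The oligodendrocyte and meningeal markers lie outside these lines. Nearly all chaperones and partners lie within them, and so do the microglial and endothelial markers.

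Of the 72 genes with a chaperone name, 8 were below the minimum of 10. The nearest were *Dnajb13* with mean normalized counts of 8.18 (EC) and 3.41 (PVC), *Hspb9* with 6.77 and 4.01, *Dnajb7* with 5.35 and 2.51, *Hspb7* with 5.09 and 5.84, and *Dnajc5b* with 3.81 and 0.538. *Dnajb8*, *Dnajc22* and *Dnajc5g* were below 1 in both regions. The members just inside were *Hspb2*, *Hspb3* and *Dnajb3*, given above, followed by *Hspa1l* and *Hspb1*.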

How the data were processed

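Poly(A)+ RNA was sequenced by the authors as 149 bp single-end reads, aligned to mm9 with TopHat2 2.0.6 and Bowtie2 2.0.2.0, and counted per gene with HT-SEQ on the NCBIM37 annotation. The authors compared genotypes within each region with DESeq2 1.10.1. The deposited signal used here is the authors' mean of normalized counts (counts divided by size factors) over the 29 libraries of a region. The other deposited columns hold the authors' genotype comparison (log2 fold change, standard error, Wald statistic, p-values) and were not used. Depth of single libraries was not analysed here. Summed over genes, the means came to 4.94e+07 (EC) and 2.71e+07 (PVC), so precision is given as counting error only.

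Samples were assigned from their labels. Ratios of EC over PVC, centring, the minimum of 10 and the 1.5-fold limit were computed with Python 3.11.15, numpy 2.4.6 and pandas 2.3.3, and figures drawn with matplotlib 3.10.9. The ratio calls were tested on simulated data in which every changed gene differed 2-fold, so calls near the 1.5-fold limit were not tested in this way. Exon lengths and coordinates came from GENCODE vM1 on NCBIM37, the same assembly as mm9, matched by symbol for 81.2% of the listed genes. Promoters came from RefSeq (GRCm38.p6), with 52 of the 64 members matched. Planned protein features were not analysed here. Of the fixed genes, 3 were matched through an older symbol.

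Members and lists were chosen with earlier results of these data known. The genes named are all HSP genes, the 12 highest J-domain genes, those past 1.5-fold, those nearest the minimum, and partners past 1.5-fold or among the 5 highest of their list. Other J-domain genes and partners were named after their values were seen. Alternatives were other centres, limits, minimums, a pseudocount and other lengths.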

Additional observations from a re-analysis of the deposited data

How the results depend on the processing

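Another centre (the ratio of the summed counts, the median over genes with at least 100, or the upper quartile) left the 2 higher and 2 lower genes called and moved the median ratio of the chaperone genes to 0.010, 0.0025 and 0.011, so its sign depends on the centre. A pseudocount of 1 gave −0.011. With a log2 limit of 0.32 in place of 0.58, 4 genes were higher and 5 lower (all genes 2251 and 1738, against 1060 and 842), and with 2-fold (416 and 331) 0 were higher while *Hspb3* and *Dnajc21* were still lower. With a minimum of 100 in both regions 59 genes were left, 1 higher (*Hspa2*) and 1 lower (*Dnajc21*), with a median of 0.0034 and 488 and 522 of all genes called. Without a minimum, over 72 genes, 3 were higher and 4 lower, with a median of −0.043 and 3764 and 2707 of all genes called. The chaperones made up 0.969% of the EC and 0.925% of the PVC with the longest transcript as the length, and 1.02% and 0.986% with no division by length. With the longest transcript *Hspa8* was above *Hsp90ab1* in the PVC, and with no length it was the highest in both regions. The longest transcript also put *Dnajc7* above *Dnajc5* in the EC, but not in the PVC. No paired analysis was possible because the values are means over all mice of a region, and for the same reason no library could be left out. The spread between mice was not analysed here, and *Hspb2*, *Dnajb3* and *Hspb3* rest on the fewest reads.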

Other observations

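Tested neighbours of the called chaperones had other ratios. *Brix1* lies 4263 bases from *Dnajc21* and had a ratio of −0.15. On the other side *Prlr*, 73007 bases away, had 0.69, against −1.54 for *Dnajc21*. *Zbtb1*, 7226 bases from *Hspa2*, had −0.28 and *Gm70*, 10665 bases away, had −0.79, against 0.70 for *Hspa2*. *Snx18* and *Arl15*, 44332 and 130829 bases from *Hspb3*, had 0.30 and 0.16, against −2.24 for *Hspb3*. *Usp40* and *Heatr7b1*, 196181 and 21238 bases from *Dnajb3*, had 0.02 and −0.61, against 0.65 for *Dnajb3*. Of the neighbours, *Prlr*, *Gm70* and *Heatr7b1* were themselves past 1.5-fold, as were 12.2% of all genes tested. Their counts were low, at 106 (EC) and 35.5 (PVC) for *Prlr*, 25.5 and 23.8 for *Gm70*, and 120 and 98.7 for *Heatr7b1*. All of the neighbours were chosen after the values of the chaperone genes were seen. *Hspb2* and *Cryab*, which share a promoter region, had ratios of −0.06 and −0.70. The causes of these differences were not tested.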
